A study of Homo sapiens with 15 samples.

Results

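The genes described here are 9 enzymes of non-essential amino acid metabolism, out of 60670 genes counted, in RNA sequencing libraries of HT-1080, a human fibrosarcoma cell line. They were chosen by name: ASNS, GPT2, PYCR1, ALDH18A1, CTH, CBS, GOT1, PCK2 and GLUL. The libraries form 5 groups with 3 in each. One group is of cycling cells in DMSO, the vehicle, labelled 6 h. The other 4 are of cells driven into senescence by a dominant negative TRF2, a telomere-binding protein encoded by TERF2, which they expressed for 6 days before DMSO or 1 uM GNF-7, a kinase inhibitor, was given for 6 h or 24 h. There are no cycling cells in GNF-7 and none at 24 h, so the effect of GNF-7 could be measured in senescent cells only. All cells grew in tet-free serum at 5% oxygen. Whether the cycling cells carry the TRF2 construct, and whether the line is 1 clone, is not given in the sources used here. The labels call the libraries biological replicates without saying what was repeated, so the spread between them may be partly technical.

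Cells make these amino acids from glutamate, pyruvate, serine and intermediates of the citric acid cycle. When an amino acid is scarce, the kinase GCN2 senses uncharged transfer RNA and phosphorylates the initiation factor eIF2alpha, which slows general translation and favours translation of ATF4. ATF4 then binds, with a C/EBP partner, to composite elements in genes of amino acid synthesis and transport, among which ASNS is the classic example. The title of the study names GCN2 as the target that GNF-7 activates.

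Library totals ranged from 25991007 to 32323393 counts. Transcript levels are given as CPM, the count scaled to a common library size (TMM), with 1 value per library. TERF2, which counts reads of the mutant and of the cell's own gene together, stood at 55.7 to 62.4 CPM in cycling cells and at 128 to 293 CPM in the 12 senescent libraries. Among senescent cells it was lower in GNF-7 than in vehicle, with a log2 fold change of -0.37 at 6 h and -0.73 at 24 h. In senescent vehicle cells TERF2 was also lower at 24 h than at 6 h, with a log2 fold change of -0.39. Of the mesenchymal markers, VIM stood at 3346 to 4499 CPM while S100A4 stood at 0.16 to 3.10 CPM, and the summed epithelial, leukocyte, endothelial, hepatocyte and erythroid markers reached at most 1.46 CPM. The share of counts from mitochondrially encoded genes moved with the groups, and was 3.75 to 5.01% in cycling cells. In senescent cells at 6 h it was 11.2 to 12.4% in DMSO and 13.2 to 15.3% in GNF-7. At 24 h the share was 15.1 to 18.7% in DMSO and 22.6 to 24.1% in GNF-7. With those genes left out of the scaling, every call on the 9 enzymes in the 6 comparisons below was the same, except that of GLUL between senescent and cycling cells.

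The ASNS promoter carries the composite element through which ATF4 is known to act, followed by the element GTTACA. Promoter windows (250 bases before to 50 after an annotated start, from RefSeq, GRCh38.p14) were read on both strands for the core of the composite element, TGATGNAA, and for GTTACA. Windows were available for 7 of the 9 enzymes; PYCR1 and GPT2 are named only. The core was present in 3.62% of all 35116 windows, and GTTACA in 6.66%. Counted by gene, since a gene can have several windows, 4.46% of 27305 genes had the core in at least 1 window and 8.07% had GTTACA. Of the 7 enzymes, 2 had the core, ASNS and GOT1. The first stretch below shows the ASNS core and GTTACA in capitals, and the next the match in GOT1, which lies on the other strand and so reads as its reverse complement. For comparison, the 90 bases before the start are shown for 3 enzymes without a match in the window, PCK2 and CTH, which rose with GNF-7, and ALDH18A1, which fell.
ASNS, chr7:97872411-97872506, minus strand: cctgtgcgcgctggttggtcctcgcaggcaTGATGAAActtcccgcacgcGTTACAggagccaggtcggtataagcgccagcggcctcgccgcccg
GOT1, chr10:99430775-99430852, minus strand: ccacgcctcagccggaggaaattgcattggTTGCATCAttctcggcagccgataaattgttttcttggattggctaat
PCK2, chr14:24094221-24094310, plus strand: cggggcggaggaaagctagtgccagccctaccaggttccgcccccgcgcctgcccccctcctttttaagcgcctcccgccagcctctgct
CTH, chr1:70411178-70411267, plus strand: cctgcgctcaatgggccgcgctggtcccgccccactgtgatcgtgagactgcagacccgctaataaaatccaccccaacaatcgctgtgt
ALDH18A1, chr10:95656712-95656801, minus strand: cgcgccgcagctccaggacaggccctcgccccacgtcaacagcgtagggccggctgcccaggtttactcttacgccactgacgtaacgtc
The ASNS core begins at position -68 and GTTACA at position -48 relative to the annotated start of their window (chr7:97872359-97872658). The GOT1 match begins at position -198. The window of another annotated ASNS start, chr7:97872116-97872415, held neither the core nor GTTACA. A match is a description of letters only, and its absence from a window says nothing about elements elsewhere in a gene.

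In GNF-7, 7 of the 9 enzymes rose at both times: ASNS, PCK2, CBS, GPT2, CTH, PYCR1 and GOT1. At 6 h the changes ran from 1.74-fold for GOT1 to 8.0-fold for ASNS, and at 24 h from 2.31-fold for GOT1 to 11.2-fold for ASNS. ALDH18A1 fell at both times and GLUL, the glutamine synthetase, was the least changed. Over all 18563 genes tested at 6 h, 17.9% were called higher and 21.4% lower at an adjusted p under 0.05 (edgeR's quasi-likelihood test, Benjamini-Hochberg). At 24 h, 29.3% were called higher and 29.7% lower. The median log2 fold change of the 9 enzymes was 1.71 at 6 h and 1.62 at 24 h, beside 0.01 and 0.04 over all genes tested.

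In senescent cells without GNF-7 the direction was the opposite for most of them. Between senescent and cycling cells in vehicle at 6 h, 8 of the 9 enzymes were lower and none was higher, with a median log2 fold change of -0.82 beside 0.06 over all genes. In that comparison 34.4% of all genes were called lower and 35.6% higher. This comparison and that of GNF-7 at 6 h share the senescent vehicle libraries, so a low value there lowers the first and raises the second.

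**Figure D1:**
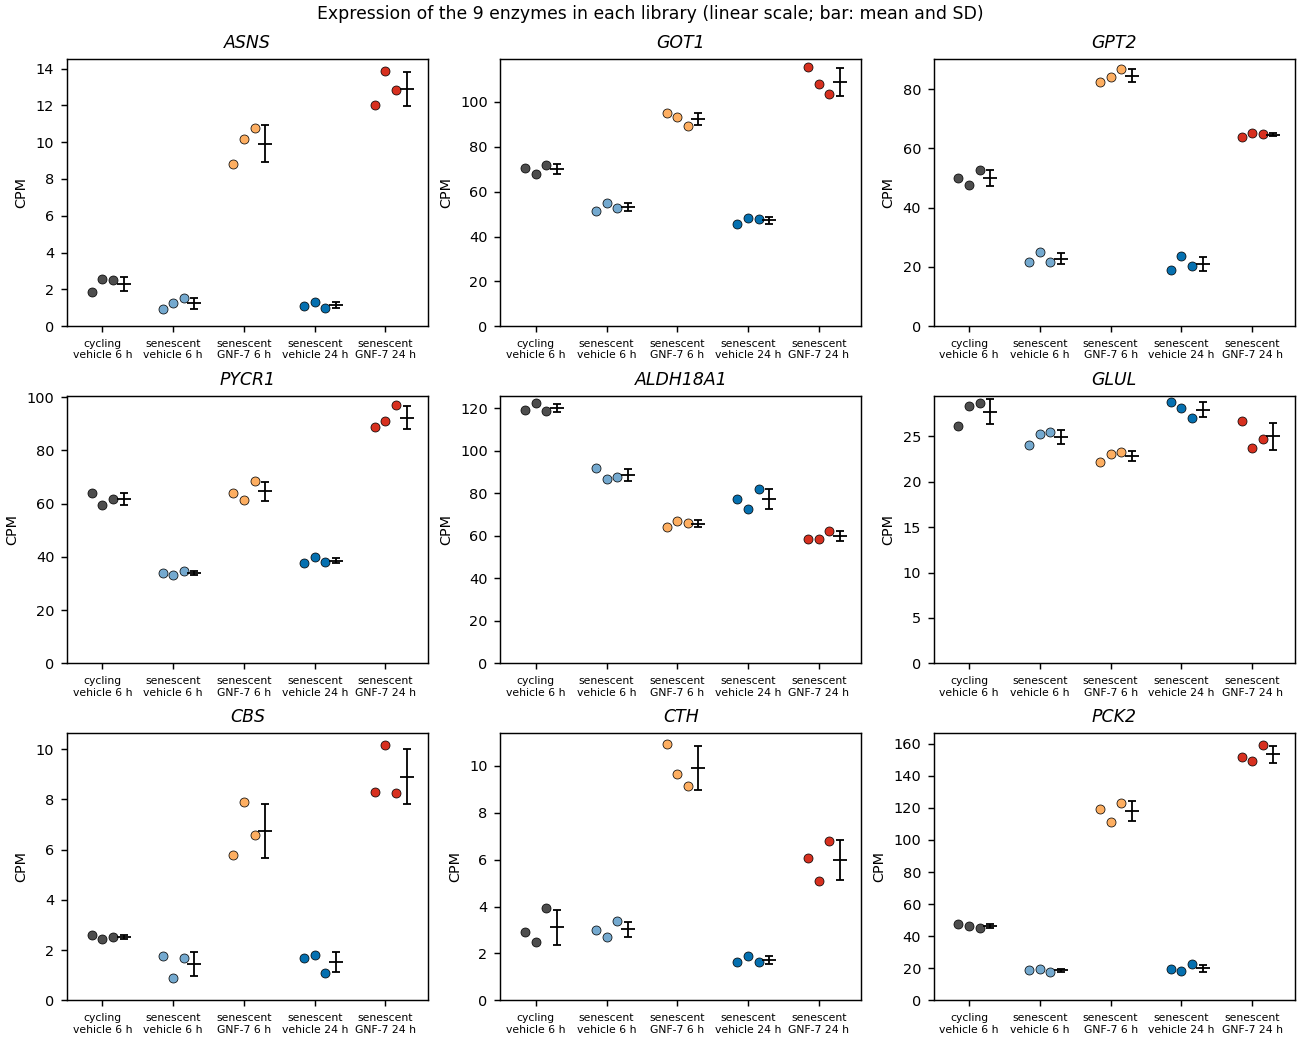
CPM of each enzyme (vertical axis, linear, from 0) in the 15 libraries, by group (horizontal axis). Each point is 1 library, and the bar beside each group is its mean with SD over 3 libraries. For ASNS, PCK2, CBS, GPT2, CTH and GOT1 all GNF-7 libraries lie above all vehicle libraries, cycling cells included. ALDH18A1 is lowest in GNF-7 and GLUL stays between 22.2 and 28.7 CPM. How many of all genes separate in this way was not counted, here or for the single enzymes below.

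ASNS makes asparagine by transferring the amide of glutamine to aspartate. The gene (ENSG00000070669) lies on chromosome 7 at 97852118 to 97872542, minus strand (GRCh38, GENCODE 29, as are all gene positions here). ASNS stood at 1.85, 2.55 and 2.51 CPM in cycling cells, and at 0.93, 1.26 and 1.53 CPM in senescent DMSO cells at 6 h. In GNF-7 it reached 8.82, 10.2 and 10.8 CPM at 6 h. At 24 h vehicle libraries held 1.08, 1.34 and 1.01 CPM and GNF-7 libraries 12.0, 13.9 and 12.8 CPM. No GNF-7 library came near a vehicle library, and the cycling libraries lay between the senescent vehicle and the GNF-7 libraries with no overlap. The log2 fold change was -0.91 (SE 0.20, adjusted p 6.32e-05) for senescence, 3.00 (SE 0.17, adjusted p 1.62e-23) for GNF-7 at 6 h and 3.49 (SE 0.17, adjusted p 3.17e-27) at 24 h. Among the 18563 genes the rise at 6 h ranked 44 and that at 24 h ranked 91.

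The ASNS counts are low, 26 to 427 per library, and uncertain in level. Of the 2356 exonic positions of its principal transcript, 1985 (84.3%) also lie in a readthrough gene on the same strand, AC079781.5, and how reads in such positions were assigned is not given in the sources used here. The readthrough gene held 1 to 29 counts per library: its summed count was 43 in senescent DMSO cells and 35 in GNF-7 at 6 h, and 37 and 65 at 24 h. ASNS itself summed to 112 and 907 counts at 6 h, and to 98 and 1174 at 24 h. The level of ASNS may therefore be understated in every group, and what the shared positions contribute to the fold changes was not tested.

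GOT1 is the cytosolic aspartate aminotransferase, which reversibly interconverts aspartate and glutamate with their oxo acids. Aspartate is also what ASNS consumes. The gene (ENSG00000120053) lies on chromosome 10 at 99396870 to 99431569, minus strand. Cycling cells held 70.5, 67.9 and 72.0 CPM of GOT1, and senescent DMSO cells at 6 h held 51.6, 54.8 and 52.9 CPM. GNF-7 libraries stood at 94.9, 93.1 and 89.4 CPM at 6 h, above every cycling library. At 24 h the vehicle libraries held 45.5, 48.3 and 47.6 CPM and the GNF-7 libraries 116, 108 and 103 CPM. Groups did not overlap at either time. The exons of GOT1 overlap an antisense gene, and whether counting used strand is not given in the sources used here. GOT1 fell with senescence, with a log2 fold change of -0.40 (SE 0.048, adjusted p 6.05e-11), and rose with GNF-7 by 0.80 (SE 0.047, adjusted p 2.73e-22) at 6 h and 1.21 (SE 0.048, adjusted p 1.65e-31) at 24 h.

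GPT2, the mitochondrial alanine aminotransferase, makes alanine from pyruvate with glutamate as the nitrogen donor. The gene (ENSG00000166123) lies on chromosome 16 at 46884378 to 46931297, plus strand. It stood at 49.99, 47.5 and 52.9 CPM in cycling cells and at 21.7, 24.9 and 21.6 CPM in senescent DMSO cells at 6 h, below every cycling library. With GNF-7 it reached 82.4, 84.2 and 86.7 CPM at 6 h, and 64.0, 65.1 and 64.9 CPM at 24 h. The 24 h vehicle libraries held 19.1, 23.6 and 20.3 CPM. Its highest group was therefore GNF-7 at 6 h, and no library of either GNF-7 group overlapped a vehicle library. The log2 fold changes were -1.14 (SE 0.062, adjusted p 8.93e-25) for senescence, 1.89 (SE 0.060, adjusted p 1.87e-35) for GNF-7 at 6 h and 1.62 (SE 0.062, adjusted p 6.20e-32) at 24 h.

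Proline synthesis from glutamate was split between its enzymes. ALDH18A1 carries out the first steps, to pyrroline-5-carboxylate, and PYCR1 is the mitochondrial reductase that completes proline. PYCR1 (ENSG00000183010, chromosome 17 at 81932384 to 81942412, minus strand) stood at 63.9, 59.4 and 61.9 CPM in cycling cells and 33.9, 33.3 and 34.8 CPM in senescent DMSO cells at 6 h. GNF-7 libraries held 63.8, 61.4 and 68.6 CPM at 6 h, which overlaps the cycling range. At 24 h PYCR1 was at 37.8, 39.7 and 38.2 CPM in vehicle and at 88.6, 91.0 and 97.2 CPM in GNF-7. PYCR1 thus fell with senescence (log2 fold change -0.86, SE 0.053, adjusted p 2.07e-22) and rose with GNF-7 at 6 h (0.92, SE 0.053, adjusted p 4.17e-23) and at 24 h (1.26, SE 0.051, adjusted p 8.61e-31). A part of its exons, 408 of 2886 positions, is shared with MYADML2 on the same strand, and an antisense gene overlaps it too.

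ALDH18A1 (ENSG00000059573, chromosome 10 at 95605929 to 95656706, minus strand) was highest in cycling cells, at 119, 122 and 119 CPM. Senescent vehicle cells at 6 h held 91.7, 86.6 and 87.5 CPM of ALDH18A1, and GNF-7 cells 64.1, 67.2 and 66.0 CPM. At 24 h it stood at 77.4, 72.4 and 82.2 CPM in vehicle and at 58.4, 58.6 and 62.5 CPM in GNF-7. No library of any group overlapped another group, and both GNF-7 groups lay below both vehicle groups of senescent cells. The log2 fold changes were -0.44 (SE 0.045, adjusted p 1.85e-13) for senescence, -0.43 (SE 0.046, adjusted p 7.47e-12) for GNF-7 at 6 h and -0.37 (SE 0.047, adjusted p 5.05e-10) at 24 h. The counts of PYCR1 over those of ALDH18A1 in the same library, a ratio chosen after the values were seen, had a mean of 0.51 over the 3 cycling libraries and 0.38 over the senescent DMSO libraries of 6 h. The ratio was 0.98 in GNF-7 at 6 h and 1.54 at 24 h, with 0.50 in vehicle at 24 h.

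GLUL condenses glutamate and ammonia to glutamine, the amide donor for ASNS. The gene (ENSG00000135821) lies on chromosome 1 at 182381704 to 182392206, minus strand. Over the 15 libraries GLUL ranged from 22.2 to 28.7 CPM. It stood at 26.1, 28.3 and 28.7 CPM in cycling cells, 24.0, 25.2 and 25.4 CPM in senescent DMSO cells and 22.2, 23.0 and 23.3 CPM in GNF-7 at 6 h. At 24 h vehicle libraries held 28.7, 28.1 and 27.0 CPM and GNF-7 libraries 26.7, 23.7 and 24.7 CPM. The GNF-7 libraries lay below the vehicle libraries of their time without overlap, and the senescent vehicle libraries of 6 h below the cycling ones, with group SDs of 0.58 to 1.5 CPM. The log2 fold change in GNF-7 was -0.12 (SE 0.068, adjusted p 0.148; 95% interval -0.26 to 0.01) at 6 h and -0.16 (SE 0.067, adjusted p 0.0354) at 24 h, and in senescence it was -0.16 (SE 0.068, adjusted p 0.0355).

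Both GLUL calls depended on single libraries, on the scaling and on the filter for low counts. The 24 h call was lost without vehicle library 1 (-0.14), vehicle library 2 (-0.16), GNF-7 library 2 (-0.13) or GNF-7 library 3 (-0.15), with total counts as the scaling (-0.13) and with a filter of 5 CPM (-0.06, adjusted p 0.41). The senescence call was lost without cycling library 2 (-0.15) or 3 (-0.14) or senescent vehicle library 1 (-0.14), with mitochondrial genes left out of the scaling (-0.14, adjusted p 0.0619) and with total counts (-0.02). It was also lost with no filter (-0.14, adjusted p 0.128), with the 5 CPM filter (-0.0052, adjusted p 0.944) and in a fit of only the groups compared (-0.097, adjusted p 0.179).

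CBS and CTH are the enzymes of transsulfuration, which passes the sulfur of homocysteine to cysteine through cystathionine. CBS (ENSG00000160200) lies on chromosome 21 at 43053191 to 43076943, minus strand. It stood at 2.61, 2.44 and 2.51 CPM in cycling cells and at 1.75, 0.88 and 1.66 CPM in senescent DMSO cells at 6 h. In GNF-7 it reached 5.77, 7.88 and 6.59 CPM at 6 h. At 24 h CBS was at 1.69, 1.80 and 1.08 CPM in vehicle and at 8.28, 10.2 and 8.27 CPM in GNF-7. Every GNF-7 library lay above every vehicle library of its time and above the cycling libraries, which lay above those of senescent vehicle, whereas the ranges of senescent vehicle at 6 h and 24 h overlapped. The log2 fold changes were -0.82 (SE 0.21, adjusted p 0.000579) for senescence, 2.24 (SE 0.19, adjusted p 1.92e-15) for GNF-7 at 6 h and 2.53 (SE 0.19, adjusted p 1.34e-18) at 24 h.

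The annotation holds a near-identical copy of CBS, CBSL (ENSG00000274276, chromosome 21 at 6444869 to 6468040), which contains 94.6% of the stretches of 50 bases of the principal CBS transcript. Reads of the pair could be split between both entries, so CBS levels are uncertain. CBSL stood at 0.97 ± 0.34 CPM (SD, n = 3) in senescent DMSO cells and 3.50 ± 0.26 CPM in GNF-7 at 6 h, and at 0.81 ± 0.20 and 4.11 ± 0.30 CPM at 24 h. With both entries added together, an analysis chosen after seeing the data, the log2 fold changes were -0.89 for senescence, 2.10 for GNF-7 at 6 h and 2.47 at 24 h, and all 3 stayed called.

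CTH (ENSG00000116761, chromosome 1 at 70411218 to 70439851, plus strand) splits cystathionine to cysteine. It was the only one of the 9 enzymes not called between senescent and cycling cells in vehicle at 6 h. CTH stood at 2.90, 2.48 and 3.95 CPM in cycling cells and 3.01, 2.72 and 3.36 CPM in senescent DMSO cells at 6 h, which overlap, with a log2 fold change of -0.05 (SE 0.17, adjusted p 0.825; 95% interval -0.38 to 0.29). In GNF-7 it rose to 10.9, 9.67 and 9.13 CPM at 6 h (1.71, SE 0.15, adjusted p 1.29e-14). At 24 h vehicle libraries held 1.63, 1.90 and 1.63 CPM and GNF-7 libraries 6.08, 5.10 and 6.81 CPM (1.80, SE 0.17, adjusted p 7.38e-14). CTH stood lower at 24 h than at 6 h in vehicle and in GNF-7 alike, and the log2 fold changes at both times differed by 0.09 (95% interval -0.37 to 0.55). Senescent vehicle cells of 24 h were also set against the cycling cells of 6 h, which differ in time as well. There CTH was called lower (-0.86, SE 0.19, adjusted p 6.16e-05) and GLUL was not called (0.01, adjusted p 0.884), where 70.7% of all genes were called.

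PCK2, the mitochondrial phosphoenolpyruvate carboxykinase, turns oxaloacetate to phosphoenolpyruvate, a source of carbon for serine and glycine. The gene (ENSG00000100889) lies on chromosome 14 at 24094053 to 24110598, plus strand. PCK2 stood at 47.6, 46.2 and 45.1 CPM in cycling cells and 19.2, 19.5 and 17.7 CPM in senescent DMSO cells at 6 h. GNF-7 libraries held 119, 111 and 123 CPM at 6 h. At 24 h PCK2 was at 19.4, 18.2 and 22.4 CPM in vehicle and at 151, 149 and 159 CPM in GNF-7. Of the 9 enzymes it had the largest fall with senescence (log2 fold change -1.30, SE 0.060, adjusted p 2.71e-28). Its rise in GNF-7 was second to that of ASNS, at 2.65 (SE 0.057, adjusted p 2.07e-44) at 6 h and 2.94 (SE 0.056, adjusted p 2.13e-47) at 24 h.

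**Figure D2:**
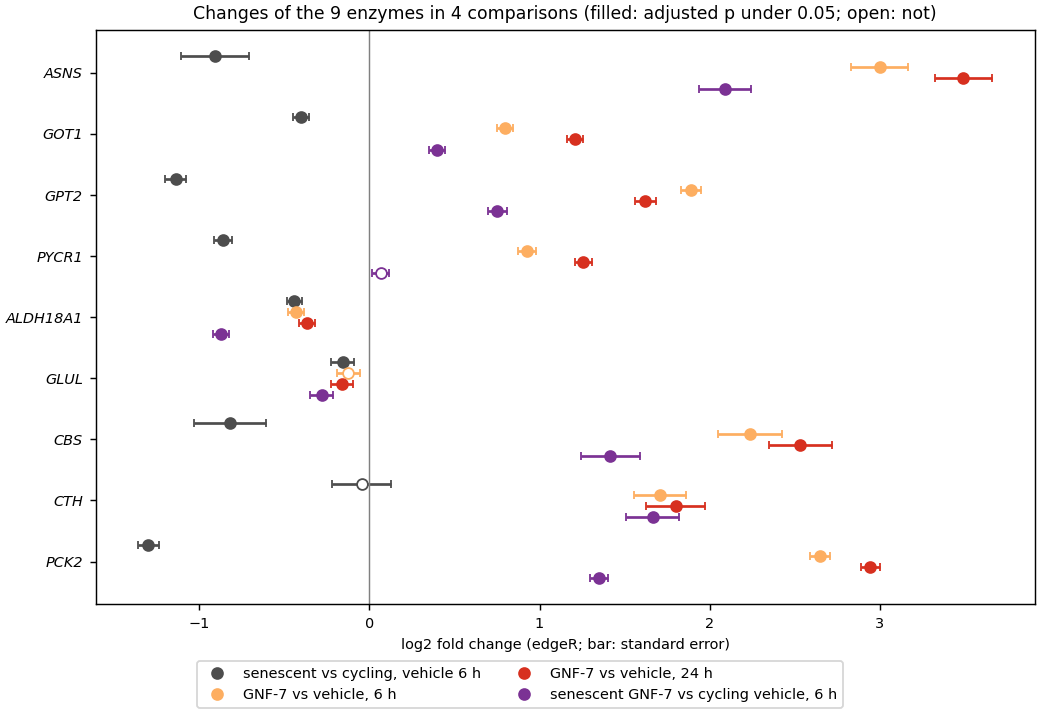
Log2 fold changes (horizontal axis) of the 9 enzymes (vertical axis) in 4 comparisons, with bars of 1 standard error. Filled points have an adjusted p under 0.05. The 7 enzymes that rose in GNF-7 have points to the right of 0 at both times, from 0.80 to 3.49, and all points of ALDH18A1 lie to the left.

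Whether the treated senescent cells lay above the cycling cells was asked directly. GNF-7 at 6 h against cycling vehicle cells differs in state and in compound at once. In that comparison 6 of the 9 enzymes were higher and 2 lower, with 39.6% of all genes called higher and 36.1% lower. The median log2 fold change of the 9 was 0.75, beside 0.10 over all genes. ASNS was higher by 2.09 (SE 0.15), CTH by 1.66 (SE 0.15), CBS by 1.42 (SE 0.18), PCK2 by 1.35 (SE 0.051), GPT2 by 0.75 (SE 0.056) and GOT1 by 0.40 (SE 0.047), with adjusted p at most 1.40e-10. ALDH18A1 (-0.87, SE 0.046, adjusted p 5.59e-26) and GLUL (-0.28, SE 0.068, adjusted p 0.000209) were lower. PYCR1 was not called (0.07, SE 0.050, adjusted p 0.222), and it was called with total counts as the scaling (0.21), under a filter of 5 CPM (0.27) and in a fit of these groups alone (0.11). The GLUL call was lost with total counts (-0.14) and with that filter (-0.08).

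The size of the GNF-7 effect at 24 h was then set against that at 6 h, as an interaction term. The effect was larger at 24 h for GOT1 (0.41 log2 units, SE 0.067, adjusted p 1.27e-06), PYCR1 (0.33, SE 0.074, adjusted p 0.000231) and PCK2 (0.30, SE 0.081, adjusted p 0.00306), and smaller for GPT2 (-0.27, SE 0.087, adjusted p 0.0124). That is 3 of 9 higher and 1 lower, where 12.8% of all genes were called higher and 18% lower. For GPT2 the call was lost without vehicle library 2 of 24 h (-0.18, adjusted p 0.129). ASNS (0.49, SE 0.26, adjusted p 0.156), CBS (0.29), CTH (0.09), ALDH18A1 (0.06) and GLUL (-0.04) were not called. Without single libraries ASNS ranged from 0.32 to 0.66, CBS from 0.11 to 0.55, CTH from -0.012 to 0.19, ALDH18A1 from 0.013 to 0.10 and GLUL from -0.086 to 0.00013. The median over the 9 was 0.29, beside -5.2e-05 over all genes, and it fell to between 0.11 and 0.19 without senescent vehicle library 1 (0.11) or 3 (0.17) of 6 h, GNF-7 library 1 of 6 h (0.19), vehicle library 3 of 24 h (0.11) or GNF-7 library 2 of 24 h (0.19).

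The vehicle cells themselves were compared between 24 h and 6 h. Of the 9 enzymes, 3 were lower at 24 h and 1 higher, where 9.29% of all genes were called lower and 9.26% higher. CTH differed the most, by -0.81 (SE 0.19, adjusted p 0.000981), followed by ALDH18A1 (-0.20, SE 0.046, adjusted p 0.000996) and GOT1 (-0.17, SE 0.050, adjusted p 0.00906), and PYCR1 was higher (0.18, SE 0.055, adjusted p 0.0136). The GOT1 call was lost without vehicle library 2 of 6 h (-0.15) or vehicle library 1 of 24 h (-0.15). The PYCR1 call was lost without vehicle library 2 of 6 h (0.17) or of 24 h (0.16), and GPT2 was called (-0.21, adjusted p 0.0374) without the latter. With total counts as the scaling the median of all genes moved from 0.01 to -0.10, PYCR1 was not called (0.07) and GPT2 was (-0.23). The median over the 9 was -0.11, and without vehicle library 3 of 6 h it was 0.05, without library 1 of 24 h -0.05 and without library 3 of 24 h -0.03.

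Within the GNF-7 cells the enzymes took different courses. Between 6 h and 24 h in GNF-7, ASNS rose from 9.92 ± 1.0 to 12.9 ± 0.92 CPM (mean ± SD, n = 3; a log2 difference of 0.38, adjusted p 0.00953) and PCK2 from 118 ± 6.3 to 153 ± 5.3 CPM (0.38, adjusted p 5.28e-10). GPT2 went from 84.5 ± 2.2 to 64.6 ± 0.59 CPM (-0.39, adjusted p 1.67e-08) and CTH from 9.91 ± 0.92 to 5.99 ± 0.86 CPM (-0.72, adjusted p 1.70e-05). Of all genes, 47.8% were called between these groups in either direction. For CTH the vehicle level fell alongside, and for GPT2 it was not called. PYCR1 rose by 0.51 (adjusted p 6.73e-14), CBS by 0.40 (adjusted p 0.0249) and GOT1 by 0.24 (adjusted p 1.10e-05), and ALDH18A1 fell by 0.14 (a log2 fold change of -0.14, adjusted p 0.0135).

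By mean CPM the groups fell in 1 order for ASNS and GOT1: vehicle at 24 h lowest, then senescent vehicle at 6 h, cycling, GNF-7 at 6 h and GNF-7 at 24 h. For ASNS the senescent vehicle groups were not told apart (adjusted p 0.806), and all other neighbours differed, as did all for GOT1. CBS, PCK2 and PYCR1 followed the same order with the senescent vehicle groups exchanged. Those vehicle groups were not told apart for CBS (adjusted p 0.81) or PCK2 (adjusted p 0.429), and for PYCR1 cycling and GNF-7 at 6 h were not (adjusted p 0.222). GPT2 and CTH were highest in GNF-7 at 6 h, with GNF-7 at 24 h next and above cycling cells (0.37 and 0.94 log2 units, adjusted p 4.36e-08 and 4.09e-07). Not told apart were the senescent vehicle groups for GPT2 (adjusted p 0.252) and senescent vehicle at 6 h and cycling for CTH (adjusted p 0.825). ALDH18A1 differed in the place of the GNF-7 groups, which lay below vehicle. Cycling was highest, then vehicle at 6 h, vehicle at 24 h, GNF-7 at 6 h and GNF-7 at 24 h, with every neighbouring pair called. For GLUL, cycling and GNF-7 at 24 h were the sole neighbours that differed (0.15, adjusted p 0.0388). The shares of all genes called in either direction in the pairs not met above were 70.7% between 24 h vehicle and cycling cells, 80.3% between GNF-7 at 24 h and cycling cells, 41.7% between 24 h vehicle and GNF-7 at 6 h, and 61.6% between GNF-7 at 24 h and senescent vehicle at 6 h.

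Levels of different genes can be set against each other only per length. The length used was that of all annotated exons of a gene together, 2886 bases for PYCR1 and 6786 for CBS. Their principal transcripts are 1904 and 2605 bases long, so the order of levels may change with the length used. Per kilobase of exon, ALDH18A1 was the most abundant of the 9 in cycling cells at 31.9 ± 0.51 CPM per kb (SD, n = 3), followed by PYCR1 at 21.4 ± 0.78 and GOT1 at 20.8 ± 0.61 CPM per kb. ASNS and CBS were the least abundant, at 0.517 ± 0.088 and 0.372 ± 0.013 CPM per kb, with the limits on their counts given above. In GNF-7 at 24 h PCK2 led with 36.6 ± 1.3 CPM per kb, ahead of GOT1 at 32.3 ± 1.8 and PYCR1 at 31.97 ± 1.5, and ALDH18A1 stood at 15.9 ± 0.60 CPM per kb. Levels are shares of a library, so fewer cells with a transcript and less of it per cell cannot be told apart.

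Several of the 9 have a paralogue in another compartment, and these did not change alike. GOT2, the mitochondrial counterpart of GOT1, stood at 166, 161 and 158 CPM in senescent DMSO cells at 6 h and at 157, 145 and 150 CPM in GNF-7. At 24 h GOT2 held 158, 158 and 160 CPM in vehicle and 114, 118 and 122 CPM in GNF-7, a fall with a log2 fold change of -0.43 (SE 0.040, adjusted p 1.12e-14). The 6 h difference (-0.10, SE 0.039, adjusted p 0.0356) was lost under 10 of 25 alternatives, among them the exclusion of vehicle library 1 (-0.08) or 2 (-0.10) or of GNF-7 library 2 (-0.06) or 3 (-0.10). In the same libraries the GOT1 count was 0.29 ± 0.012 of that of GOT2 in cycling cells, 0.33 ± 0.016 in senescent vehicle and 0.61 ± 0.024 in GNF-7 at 6 h, and 0.30 ± 0.0091 and 0.93 ± 0.084 at 24 h (SD, n = 3).

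PYCR3, the cytosolic counterpart of PYCR1, fell with GNF-7, from 19.8 ± 1.2 to 15.6 ± 1.2 CPM at 6 h (-0.34, SE 0.086, adjusted p 0.000819) and from 14.9 ± 0.80 to 9.58 ± 1.3 CPM at 24 h (-0.63, SE 0.094, adjusted p 3.16e-08). Counts of PYCR1 over PYCR3 went from 1.72 in senescent vehicle to 4.15 in GNF-7 at 6 h, and from 2.60 to 9.73 at 24 h. The cytosolic partners of GPT2 and PCK2 were nearly absent: GPT had 3 to 20 counts per library and PCK1 0 to 7, which limits what could be detected for them at this depth. GPT was not called at 6 h (-1.36, SE 0.62, adjusted p 0.0774; -1.68 with adjusted p 0.0413 without vehicle library 3) or at 24 h (0.09, SE 0.58, adjusted p 0.908), and PCK1 was not tested.

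**Figure D3:**
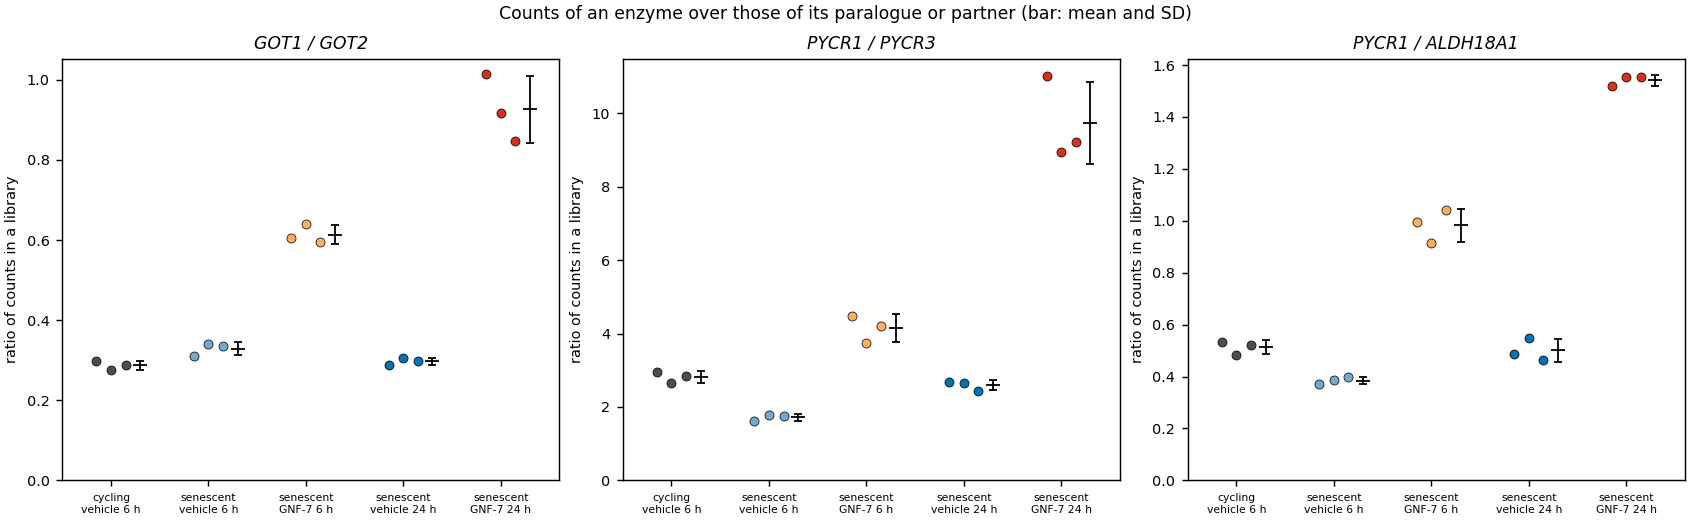
Ratio of the counts of 2 genes in the same library (vertical axis, from 0) by group, 1 point per library, with mean and SD over 3 libraries beside it. In each of the 3 panels the GNF-7 libraries lie above all vehicle libraries, with GOT1 over GOT2 up to 1.01 and PYCR1 over PYCR3 up to 11.0 at 24 h.

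The neighbouring steps of the same pathways were read from a list of 52 further enzymes, of which 41 had counts enough to be tested. The other 11, such as ASS1, ASPG and PRODH, had at most 11 counts in a library. At 6 h of GNF-7, 7 of the 41 were higher and 13 lower, with a median log2 fold change of -0.03, and at 24 h 8 were higher and 20 lower, with a median of -0.12. The shares of all genes called and their medians are those given above. At 6 h the counts depended on the settings: without GNF-7 library 2 it was 8 higher and 8 lower, and under a filter of 5 CPM 11 of 34 were higher and 8 lower. In senescence against cycling, 7 were higher and 27 lower, beside 35.6% and 34.4% of all genes, with a median of -0.51.

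Enzymes that use glutamine, listed together with the glutamate dehydrogenases, were the largest set. CTPS1, which makes CTP with the amide of glutamine, fell at 24 h from 61.2 ± 1.4 to 26.2 ± 1.6 CPM (-1.22, SE 0.051, adjusted p 2.81e-30). GFPT1, which makes glucosamine phosphate with that amide, rose from 78.6 ± 2.7 to 116 ± 4.3 CPM at 6 h (0.56, SE 0.044, adjusted p 1.10e-16) and from 68.6 ± 3.3 to 146 ± 2.8 CPM at 24 h (1.09, SE 0.044, adjusted p 9.43e-31). Of the 10 tested enzymes of this set, 2 were higher and 5 lower at each time. Of all genes, 17.9% were called higher and 21.4% lower at 6 h, and 29.3% and 29.7% at 24 h. The 2 higher at 6 h were GFPT1 and GLUD1, a glutamate dehydrogenase (0.25, SE 0.044, adjusted p 3.23e-06), and those at 24 h were GFPT1 and GFPT2.

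Of the 5 tested enzymes of aspartate metabolism, 4 were lower and 1 higher at 24 h, beside 29.7% and 29.3% of all genes. The 1 that rose, ASPA, which cleaves N-acetylaspartate, went from 3.66 ± 0.49 to 10.4 ± 0.82 CPM at 24 h (1.51, SE 0.14, adjusted p 1.94e-14) and from 4.34 ± 0.44 to 5.99 ± 0.16 CPM at 6 h (0.46, adjusted p 0.00691). The 6 h call of ASPA was lost without vehicle library 2 (0.39, adjusted p 0.0556). None of the 3 tested genes of the asparagine set beside ASNS was called at either time: ASNSD1 stood at 0.06 and 0.06, NIT2 at -0.08 and 0.05 and ASRGL1 at -0.25 and 0.10 on the log2 scale at 6 h and 24 h. In the proline set 2 of 7 were higher and 4 lower at 24 h. ARG2, a mitochondrial arginase, rose at 6 h (0.77, SE 0.10, adjusted p 4.95e-09), and ALDH4A1, which oxidises pyrroline-5-carboxylate, fell (-0.35, SE 0.12, adjusted p 0.0114), a call lost without vehicle library 1 (-0.24) or GNF-7 library 3 (-0.30).

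Around transsulfuration, 3 of the 9 tested enzymes were higher and 4 lower at 24 h, beside 29.3% and 29.7% of all genes. SQOR, which oxidises hydrogen sulfide, was the most increased, from 0.73 ± 0.30 to 1.63 ± 0.17 CPM (1.13, SE 0.32, adjusted p 0.00192), at a low level. Around phosphoenolpyruvate 3 of 6 were lower at 24 h and none higher. PC, the pyruvate carboxylase, is 1 source of the oxaloacetate that PCK2 uses. PC fell from 20.1 ± 0.89 to 9.45 ± 0.83 CPM at 24 h (-1.08, SE 0.088, adjusted p 7.82e-17). It stood at -0.04 (adjusted p 0.716) at 6 h.

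**Figure D4:**
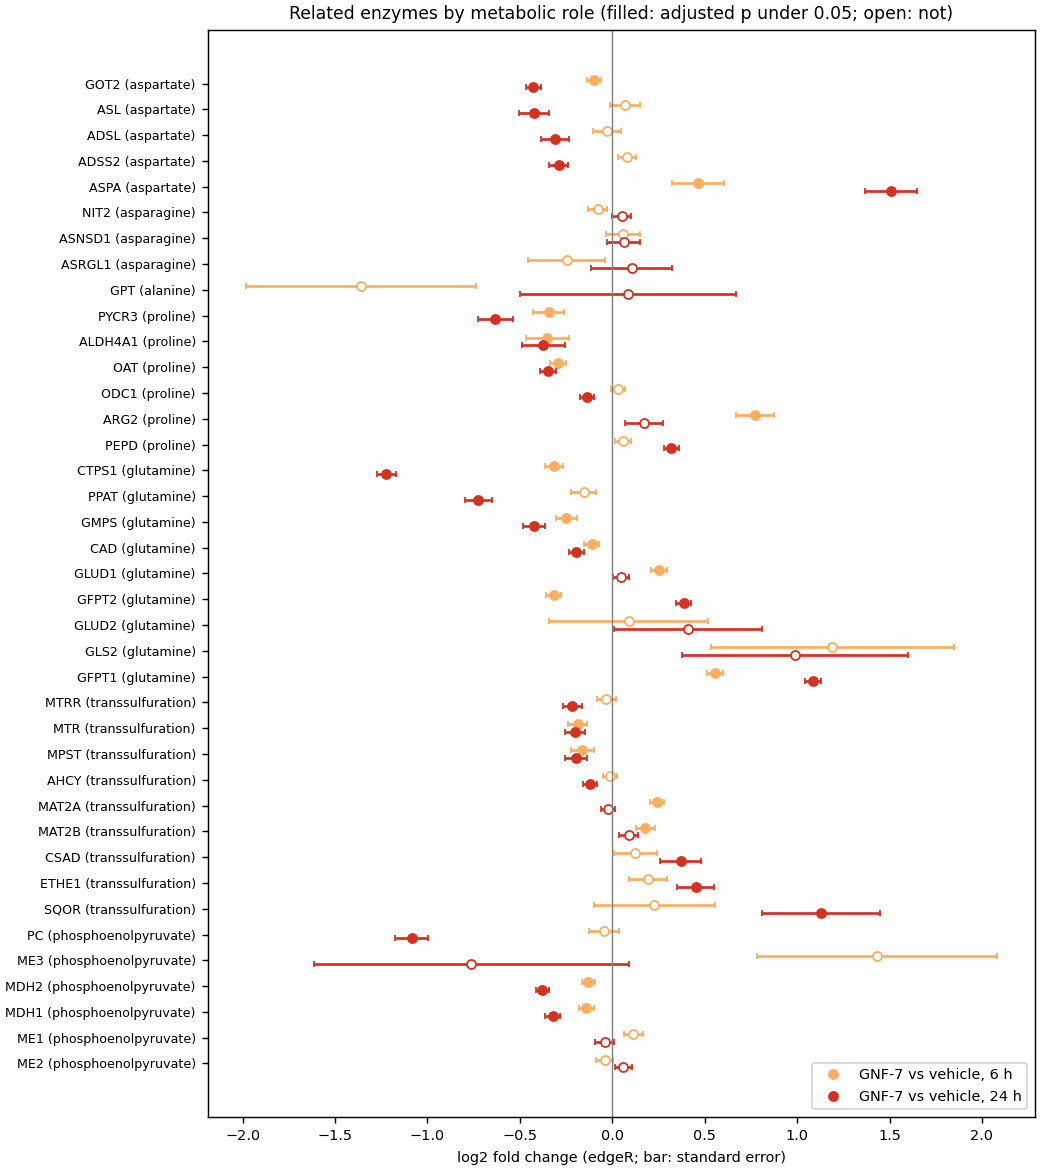
Log2 fold changes in GNF-7 against vehicle (horizontal axis) at 6 h and 24 h for 39 of the 41 tested related enzymes (vertical axis, with role), with bars of 1 standard error. Filled points have an adjusted p under 0.05. At 24 h ASPA, SQOR and GFPT1 lie farthest to the right among called enzymes, and CTPS1 and PC farthest to the left.

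In the comparison with cycling cells, the related enzymes with the largest called changes in GNF-7 at 6 h were ASPA (4.38) and CSAD (1.54) upward and CTPS1 (-1.80), GMPS (-1.76) and PPAT (-1.72) downward. GLS2, called higher as well, was barely detected, at 0.03 CPM in cycling cells and 0.38 CPM in GNF-7. Here 7 of the 41 were higher and 28 lower, beside 39.6% and 36.1% of all genes.

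The transcript of ATF4 was lower in senescent than in cycling cells and higher in GNF-7 than in vehicle at both times. Cycling cells held 326 ± 0.85 CPM, and in senescent cells ATF4 stood at 182 ± 7.9 CPM without and 433 ± 5.8 CPM with GNF-7 at 6 h, and at 192 ± 3.8 and 611 ± 11.0 CPM at 24 h (SD, n = 3). The log2 fold change of ATF4 was -0.84 (SE 0.036, adjusted p 2.07e-30) for senescence, 1.25 (SE 0.036, adjusted p 1.65e-38) at 6 h and 1.67 (SE 0.036, adjusted p 1.65e-45) at 24 h. DDIT3, a stress-induced transcription factor whose exons overlap other genes, went from 23.4 ± 0.35 to 154 ± 2.5 CPM at 6 h and from 23.4 ± 1.7 to 190 ± 2.1 CPM at 24 h, but unlike the enzymes it was higher in senescent than in cycling cells (1.19, SE 0.066, adjusted p 1.31e-24).

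The genes whose log2 CPM was most like that of ASNS over the 15 libraries, among 11063 genes with a mean of at least 5 CPM, were ALDH1L2 (Pearson r 0.994), TRIB3 (0.991), CHAC1 (0.989), CARS1 (0.989) and SLC6A9 (0.989). ALDH1L2 is a mitochondrial enzyme of folate metabolism and CARS1 the cysteinyl-tRNA synthetase. ALDH1L2 went from 15.8 to 97.3 CPM at 6 h and from 14.6 to 125 CPM at 24 h in GNF-7, with 24.4 CPM in cycling cells (group means). For GLUL the most alike were NCBP2 (0.932), MRPS6 (0.929), UQCRB (0.913), SMARCA1 (0.913) and MYL12A (0.911). These coefficients describe 15 libraries that share 5 groups and their scaling, and they carry no test.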

How the data were processed

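Per the labels' protocols, total RNA was made into stranded mRNA libraries. The authors deposited 1 table of raw read counts per Ensembl gene. The submitters' processing notes name bcl2fastq 2.20.0.422, STAR 2.7.9a, featureCounts 1.5.1 and GRCh38. The annotation release, the use of strand and the handling of shared reads are not given in the sources used here. Of 60673 rows, 3 were left out (1 broken entry), which left 60670. Depth was 25991007 to 32323393 counts per library.

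Groups come from titles, time labels and library names. Counts were tested with edgeR 4.0.16 (R 4.3.3): TMM scaling, filterByExpr (18563 genes), a robust quasi-likelihood fit of all 15 libraries with 1 term per group, and Benjamini-Hochberg adjustment over all genes. The SE is the log2 fold change divided by the square root of F. DESeq2 1.42.0, limma 3.58.1 (voom), other scalings and filters, a replicate block and leaving out each library were alternatives. The code was tested on simulated data. Gene positions and exon lengths are from GENCODE 29. No replicate numbers were used as pairs.

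The members and lists were chosen with earlier results of these data known. The genes named are the 9 enzymes, their paralogues, in each comparison with GNF-7 the 3 largest rises and falls among called related enzymes, ATF4, DDIT3 and TERF2, and the 5 genes most correlated with ASNS and with GLUL. The 3 asparagine enzymes are named as all of their set. Some items that the rule admits are not reported here. A planned comparison of protein sequences was not run.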

Additional observations from a re-analysis of the deposited data

Results flagged for a closer look

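For 4 of the 9 enzymes the response to GNF-7 at 24 h was unlike that at 6 h, by the interaction term of edgeR's quasi-likelihood test at an adjusted p under 0.05. As differences of log2 fold changes (24 h minus 6 h) these were 0.41 for GOT1, 0.33 for PYCR1 and 0.30 for PCK2, which responded more at 24 h, and -0.27 for GPT2, which responded less. By the same test 12.8% of all genes were called higher and 18% lower, so a call here is common. Among the paralogues and related enzymes that were named or followed here, the differences were -0.33 for GOT2, 1.04 for ASPA, 0.70 for GFPT2 and 0.53 for GFPT1. They were -0.20 for GLUD1, -0.60 for ARG2, -0.57 for PPAT, -0.91 for CTPS1 and -1.04 for PC. GFPT2, the paralogue of GFPT1 for the same step, went in opposite directions, from 116 to 93.2 CPM at 6 h and from 107 to 140 CPM at 24 h (group means). GOT1 and GOT2 also parted further with time, the first with a larger rise and the second with a larger fall. ARG2 rose at 6 h and was not called at 24 h.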

How the results depend on the processing

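Over 25 alternatives (15 of them leaving out 1 library each), 39 of 54 tests of the 9 enzymes kept direction and call, and in GNF-7 at 6 h and 24 h this held for all but GLUL at 24 h. Under the stricter filter (a mean of 5 CPM), CBS and CTH were not tested. Total counts moved the median of all genes by more than 0.1 in senescence (from 0.06 to 0.19), in vehicle over time (from 0.01 to -0.10, with 12.49% of calls higher against 49.93%) and against cycling cells (from 0.10 to 0.24). Enzymes called lower in GNF-7 at 24 h went from 2 to 1 with total counts and with the 5 CPM filter, and ranged from 1 to 2 without single libraries. Enzymes lower in the interaction ranged from 0 to 1 without single libraries. Enzymes higher in vehicle over time went from 1 to 0 with total counts and to 2 with the 5 CPM filter, which added GLUL, and ranged from 0 to 1 without single libraries. Enzymes lower against cycling cells went from 2 to 1 with total counts and with the 5 CPM filter.

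Directions turned only for values that were not called and for a median. CTH in senescence was 0.088 with total counts and 0.015 in a fit of the groups compared, and -0.19 to 0.17 without single libraries. In the interaction GLUL was 0.011 with the 5 CPM filter and -0.086 to 0.00013 without single libraries, and CTH -0.012 to 0.19. In vehicle over time CBS was -0.0016 with total counts, -0.026 with CBSL added and -0.15 to 0.29 without single libraries, and PCK2 was -0.026 with total counts. There ASNS ranged from -0.28 to 0.061 and the median from -0.15 to 0.047 without single libraries. The cause was not tested.

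Deviations of same-numbered libraries from their group means had correlations of -0.04 to 0.05, and those of differently numbered ones -0.06 to 0.04. With 3 libraries per group this cannot decide whether the numbers pair the libraries. Over all genes the replicate block raised the calls, from 7286 to 7481 in GNF-7 at 6 h and from 3443 to 3711 in vehicle over time. With the replicate block, 7 enzymes were higher and 1 lower in GNF-7 at 6 h, 7 and 2 at 24 h, 0 and 8 in senescence, 3 and 1 in the interaction, 1 and 3 in vehicle over time and 6 and 2 against cycling cells, with 0 calls changed. At 26 to 427 counts, ASNS, CBS and CTH have the widest errors.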
